A study of Homo sapiens with 6 samples.

Results

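The genes described here are 10 components of transforming growth factor beta (TGF-beta) signalling, chosen by name: the ligands TGFB1 and TGFB2, the receptors TGFBR1 and TGFBR2, the signal-carrying SMAD2, SMAD3 and SMAD4, the inhibitory SMAD7, and ID1 and ID3, whose transcription SMAD proteins control. They are 10 of the 58302 genes in the deposited table, and all 10 were among the 15572 genes with enough counts to be tested. RNA was sequenced from MDA-MB-231-DR, a line selected for resistance to doxorubicin from MDA-MB-231, which is a triple-negative breast cancer line, as 3 control libraries and 3 libraries of cells treated with cyperotundone (CYT), a compound the study tested for its effect on chemosensitivity. By the study's methods the resistant line is kept in medium with a low concentration of doxorubicin. Whether the sequenced cells of either group had it in their medium is not stated. The sources used here state neither the CYT dose and treatment time of these libraries nor the treatment of the control cells, and the labels give the parental name MDA-MB-231 as the cell line while the titles give MDA-MB-231-DR. All libraries come from 1 line, and nothing in the labels says that replicates were separate cultures, so p-values measure the spread between these libraries, which may be technical. The study's statistics section speaks of independent experiments in general and does not name the sequencing.

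In this pathway, as background, a TGF-beta ligand brings the kinases TGFBR2 and TGFBR1 together, TGFBR1 then phosphorylates SMAD2 and SMAD3, and these enter the nucleus with SMAD4 to change transcription, while SMAD7 blocks the receptor as a feedback inhibitor. ID proteins lack a DNA-binding region and hold basic helix-loop-helix factors away from DNA. In breast cancer the pathway is known for slowing the division of early tumor cells and for promoting epithelial-mesenchymal transition and metastasis later.

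After CYT treatment, RNA of the receptor TGFBR2, the mediator SMAD3 and the genes ID1 and ID3 fell 2.14-fold (SMAD3) to 5.11-fold (ID3), and RNA of the inhibitor SMAD7 rose 2.27-fold. The other 5 genes, TGFB1, TGFB2, TGFBR1, SMAD2 and SMAD4, did not pass the test. Thus 5 of 10 genes passed an adjusted p of 0.05 in edgeR's quasi-likelihood test, 1 of them higher and 4 lower, where 28.6% of all tested genes passed, 15.7% higher and 12.9% lower. In the same 5 genes no CYT library overlapped a control library in CPM, the counts of a gene scaled to a common library size, a separation found in 46.1% of all tested genes, 23.4% higher and 22.7% lower. The median log2 fold change of the 10 genes was -0.36, against 0.0064 over all tested genes. An exact two-sided permutation test over the libraries gave p = 0.1 for each of the 5 genes, which is the smallest value that 3 against 3 allows. In bulk RNA, fewer cells of a type and less RNA per cell cannot be told apart.

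**Figure D1:**
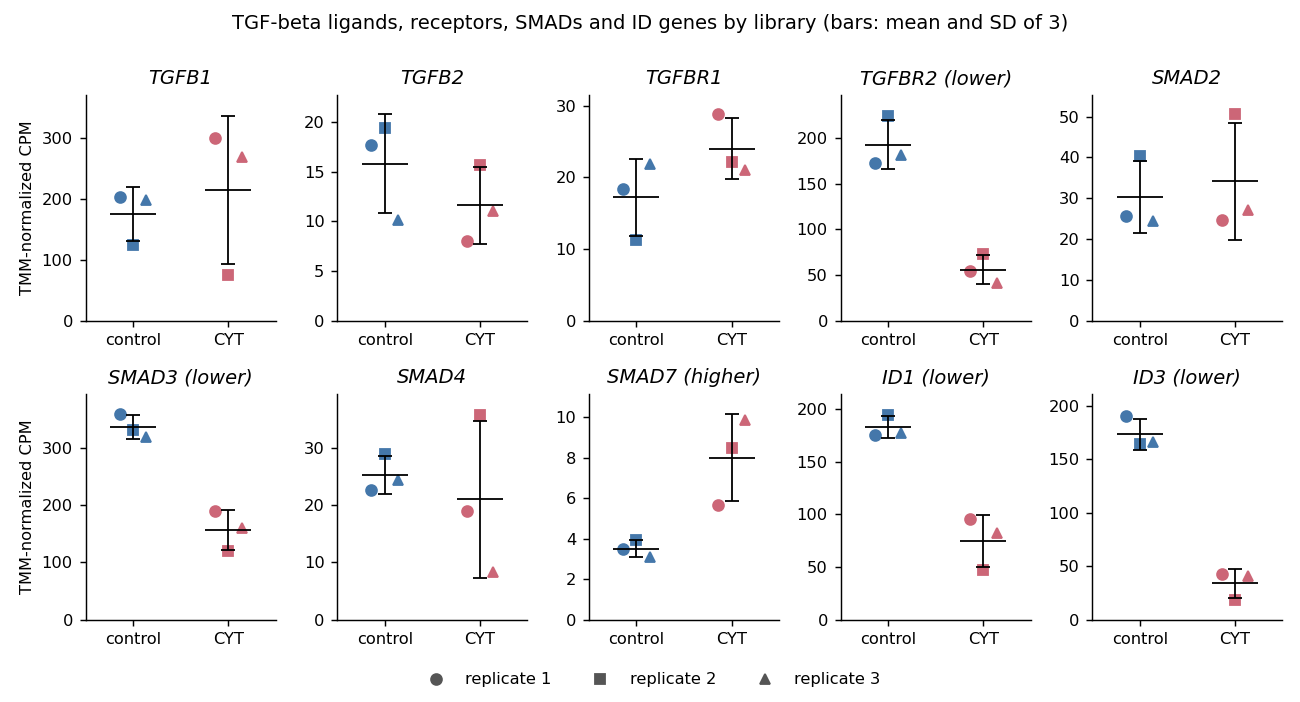
TMM-normalized CPM (vertical axes, each starting at 0) of the 10 genes in 3 control (blue) and 3 CYT (red) libraries, with marker shape giving the replicate number and black bars the mean and SD of 3. In TGFBR2, SMAD3, ID1 and ID3 every CYT library lies below every control library, in SMAD7 every CYT library lies above, and in the other 5 genes the groups overlap.

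Control libraries held 14050849 to 17770102 counts and CYT libraries 13056270 to 14106017 counts. Within groups, log2 CPM correlated across genes with r from 0.904 to 0.971, and the lowest values, 0.904 and 0.905, were those of CYT replicate 2 with the other CYT libraries. All 7 markers of mesenchymal-like breast cancer cells were detected, with a summed level of 5167 to 5427 CPM in control and 2529 to 2823 CPM in CYT libraries, and 3 of them fell, beside 12.9% of all genes. These were VIM (vimentin), AXL and EGFR. The luminal markers ESR1 and PGR, which are absent from triple-negative cells, had at most 4 and 3 counts in any library. The 8 luminal markers summed to 160.7 to 184.6 CPM in control and 107.1 to 184.6 CPM in CYT libraries, most of it XBP1 (135.5 CPM in control), and 5 of them, XBP1, AGR2, ERBB3, FOXA1 and GATA3, had enough counts to be tested. The 6 fibroblast markers summed to 7.93 to 16.7 CPM in control and 0.997 to 3.34 CPM in CYT libraries. PDGFRB made up most of this sum except in CYT replicate 2, where it was 0.498 of 0.997 CPM. DCN was at 0 throughout and LUM had at most 1 count. The 6 blood markers summed to between 7.69 and 24.1 CPM, with CD3E at 0 and PTPRC at no more than 7 counts. CD68 made up most of the control sum, at a mean of 12.9 CPM in control and 8.24 CPM in CYT libraries, with overlap. CD14 was higher in CYT libraries (0.733 and 3.90 CPM), but was tested only because its CYT libraries reached the count filter. The 6 basal mammary markers summed to at most 3.58 CPM. The part of these markers in the results below was not tested.

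The ligands were considered first. TGFB1, the main TGF-beta ligand of most cells, had 204, 124 and 199 CPM in control replicates 1, 2 and 3 and 300.3, 75.7 and 269 CPM in CYT replicates 1, 2 and 3. CYT replicate 2 was thus below and the other CYT libraries were above every control library. The log2 fold change was 0.29 (SE 0.47, 95% interval -0.77 to 1.35, edgeR adjusted p = 0.677), and it was -0.03 without CYT replicate 1 and 0.71 without CYT replicate 2. TGFB2 had 17.7, 19.4 and 10.1 CPM in control and 7.97, 15.7 and 11.0 CPM in CYT libraries, with overlap, and a log2 fold change of -0.45 (SE 0.38, interval -1.31 to 0.41, edgeR adjusted p = 0.413). It was -0.24 without CYT replicate 1, -0.73 without CYT replicate 2, -0.23 without control replicate 2 and -0.68 without control replicate 3. The TGFB1 locus shares 6012 bp with HNRNPUL1 and 14695 bp with CCDC97 on the opposite strand. HNRNPUL1 had up to 6772 counts in a library, against up to 4258 for TGFB1. Whether counting used strand is not given in the sources used here, so reads of these genes may not be separated.

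TGFB3, the remaining ligand of the family, had 10, 18 and 10 counts in control and 203, 243 and 143 counts in CYT libraries. In CPM this was a rise from 0.766 ± 0.174 to 14.3 ± 2.97 (SD, n = 3), a log2 fold change of 4.20 (SE 0.40, edgeR adjusted p = 0.000373). The whole TGFB3 locus lies within that of IFT43 on the opposite strand, and IFT43 had 190 to 329 counts and a log2 fold change of 0.56 (edgeR adjusted p = 0.202). In CPM, IFT43 too was higher in every CYT library than in every control library. TGFB3 reached the count filter in all 3 libraries of the CYT group only. The share of TGFB3 in the summed FPKM of the 3 ligands was 0.138% to 0.339% in control and 1.93% to 8.89% in CYT libraries, highest in CYT replicate 2. With counts divided by the longest annotated transcript it was 0.296% to 0.725% and 4.05% to 17.4%. The difference in mean FPKM share, 4.13 percentage points, ran from 1.85 to 5.33 with a library left out, and was lowest without CYT replicate 2. The share of TGFB1 was 94.5% ± 2.82 and 91.2% ± 8.43 (SD, n = 3), with overlap. Its difference, -3.32 percentage points, ran from -5.88 to 1.54 with a library left out, so the direction turned. These shares, like those of the ID genes below, were chosen after values had been seen.

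Among the receptors, TGFBR2 fell. This kinase, encoded at chr3:30606502-30694142 on the plus strand of GRCh38, binds the ligand first and sets off the cascade. Its level was 173, 224 and 182 CPM in control and 54.3, 73.0 and 40.9 CPM in CYT libraries, so the highest CYT library stood far below the lowest control library. The mean went from 193 ± 27.2 to 56.1 ± 16.1 CPM (SD, n = 3), a 3.44-fold lower level and a log2 fold change of -1.78 (SE 0.32, interval -2.49 to -1.07, edgeR adjusted p = 0.00346). Leaving out any 1 library kept the call, with log2 fold changes from -2.01 to -1.62.

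TGFBR1, the partner that TGFBR2 phosphorylates, had 18.3, 11.3 and 21.9 CPM in control and 28.8, 22.1 and 21.0 CPM in CYT libraries. The lowest CYT library lay within the control range. Its log2 fold change was 0.48 (SE 0.34, interval -0.28 to 1.25, edgeR adjusted p = 0.318), and it was 0.30 without control replicate 2. TGFBR3, a co-receptor that presents ligand to TGFBR2, had a log2 fold change of -0.23 (SE 0.42, edgeR adjusted p = 0.712), and it was 0.20 without control replicate 2. Among the other receptors of the list, the co-receptor ENG (endoglin) fell from 19.9 ± 7.53 to 4.45 ± 2.25 CPM (SD, n = 3, log2 fold change -2.16, edgeR adjusted p = 0.0107). The nodal and activin receptor ACVR1C rose from 0.477 ± 0.145 to 3.17 ± 2.07 CPM (SD, n = 3, log2 fold change 2.70, edgeR adjusted p = 0.00914), but ACVR1C was tested only because its CYT libraries reached the count filter. The activin receptor ACVR2A rose by a log2 fold change of 1.69 (edgeR adjusted p = 0.0153). Without control replicate 3 the value of ACVR2A was 1.49 (edgeR adjusted p = 0.0702).

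Within each library the receptors can be set against each other in FPKM, which divides counts by a length for each gene. The lengths implied by the deposited values are 18079 bp for TGFBR1 and 7796 bp for TGFBR2, where GENCODE 29 has 6844 and 4704 exonic bp. The level of each ratio given here and below depends on such lengths. Its difference between groups depends on them only through the 0.1 added to FPKM. The log2 ratio of TGFBR2 to TGFBR1 in FPKM was 4.32, 5.32 and 4.16 in control and 2.06, 2.84 and 2.08 in CYT libraries. All CYT ratios lay below all control ratios, by 2.27 on the log2 scale between the means (4.60 ± 0.63 and 2.33 ± 0.45, SD, n = 3, exact permutation p = 0.1, 0.125 after adjustment over the 5 ratios computed). The ratio of the ligands TGFB2 to TGFB1 overlapped between groups (difference -0.52, exact permutation p = 0.7), and the difference was 0.06 without CYT replicate 1.

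SMAD3 and SMAD2 carry the TGF-beta signal together. SMAD3, at chr15:67063763-67195195 on the plus strand, had 359, 331 and 318 CPM in control and 189.8, 120.1 and 160.3 CPM in CYT libraries, and the groups were well apart. Its mean fell from 336 ± 20.9 to 157 ± 35.0 CPM (SD, n = 3), a log2 fold change of -1.10 (SE 0.28, interval -1.73 to -0.46, edgeR adjusted p = 0.0178). The call was lost when control replicate 1 (log2 fold change -1.05, edgeR adjusted p = 0.0598), control replicate 3 (-1.14, 0.0563) or CYT replicate 3 (-1.12, 0.0590) was left out. SMAD2 had 25.7, 40.4 and 24.5 CPM in control and 24.7, 50.6 and 27.0 CPM in CYT libraries. Replicate 2 was the highest in both groups, and the groups overlapped. The log2 fold change of SMAD2 was 0.18 (SE 0.37, interval -0.66 to 1.01, edgeR adjusted p = 0.758), and it was -0.22 without CYT replicate 2. The log2 ratio of SMAD3 to SMAD2 in FPKM was 5.39 ± 0.34 in control and 4.16 ± 0.80 in CYT libraries (SD, n = 3), with no overlap (exact permutation p = 0.1, adjusted 0.125). The difference between these means, -1.23, ran from -1.55 without CYT replicate 1 to -0.78 without CYT replicate 2.

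SMAD4, the shared partner of the signal-carrying SMADs, had 22.6, 29.0 and 24.4 CPM in control and 19.0, 35.7 and 8.42 CPM in CYT libraries. The CYT libraries held both the highest and the lowest value. The log2 fold change was -0.27 (SE 0.47, interval -1.31 to 0.78, edgeR adjusted p = 0.701), and without CYT replicate 3 it was 0.08. Without CYT replicate 2 it was -0.88, still not past the threshold.

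SMAD7, the feedback inhibitor, at chr18:48919853-48950711 on the minus strand in the table, had few reads. Its upstream end in the table lies within the GENCODE 29 gene. Its counts were 56, 74 and 43 in control and 80, 119 and 124 in CYT libraries, or 3.47, 3.94 and 3.09 CPM against 5.64, 8.47 and 9.85 CPM. Every CYT library was above every control library, and the mean rose from 3.50 ± 0.43 to 7.99 ± 2.15 CPM (SD, n = 3), a log2 fold change of 1.19 (SE 0.37, interval 0.37 to 2.01, edgeR adjusted p = 0.0371). This call was the weakest of the 5. It was lost when control replicate 1, 2 or 3 was left out (log2 fold change 1.18, 1.32 and 1.11, edgeR adjusted p = 0.105, 0.0593 and 0.131) and when CYT replicate 3 was (0.99, edgeR adjusted p = 0.129). The log2 ratio of SMAD7 to SMAD3 in FPKM was -5.86, -5.63 and -5.83 in control and -4.39, -3.23 and -3.43 in CYT libraries. The inhibitor was therefore higher relative to SMAD3 in every CYT library, by 2.09 on the log2 scale (exact permutation p = 0.1, adjusted 0.125).

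Other SMADs were considered beside these. SMAD1 and SMAD9, which together with SMAD5 carry bone morphogenetic protein (BMP) signals, rose by log2 fold changes of 1.10 (SE 0.32, edgeR adjusted p = 0.0307) and 1.40 (SE 0.43, edgeR adjusted p = 0.0358). SMAD1 went from 5.31 ± 0.62 to 11.4 ± 1.85 CPM, and SMAD9 from 2.66 ± 0.46 to 7.06 ± 3.18 CPM (SD, n = 3). The call of SMAD1 was kept only without CYT replicate 2 (edgeR adjusted p = 0.0341) and lost without any other 1 library, with edgeR adjusted p from 0.0508 to 0.123. For SMAD9 it was kept only without CYT replicate 3 (edgeR adjusted p = 0.0318) and otherwise lost, with values from 0.0529 to 0.1202. SMAD5 had a log2 fold change of 0.12 (SE 0.38, edgeR adjusted p = 0.834), and it was -0.19 without CYT replicate 2 and -0.06 without control replicate 1. SMAD6, the inhibitory SMAD of the BMP branch, had 15.2, 12.2 and 18.8 CPM in control and 36.4, 17.4 and 36.6 CPM in CYT libraries, with a log2 fold change of 0.97 (SE 0.37, edgeR adjusted p = 0.0791). It passed the test without CYT replicate 2 (1.25, edgeR adjusted p = 0.00756), with the replicate number as a block (0.91, edgeR adjusted p = 0.0231), with DESeq2 (adjusted p = 0.0415), with upper-quartile normalization (edgeR adjusted p = 0.0484) and after correcting for GC content and length (edgeR adjusted p = 0.00329, and 0.00689 with the block). In all, 4 of the 8 SMADs passed, 3 higher and 1 lower, beside 15.7% higher and 12.9% lower of all genes.

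**Figure D2:**
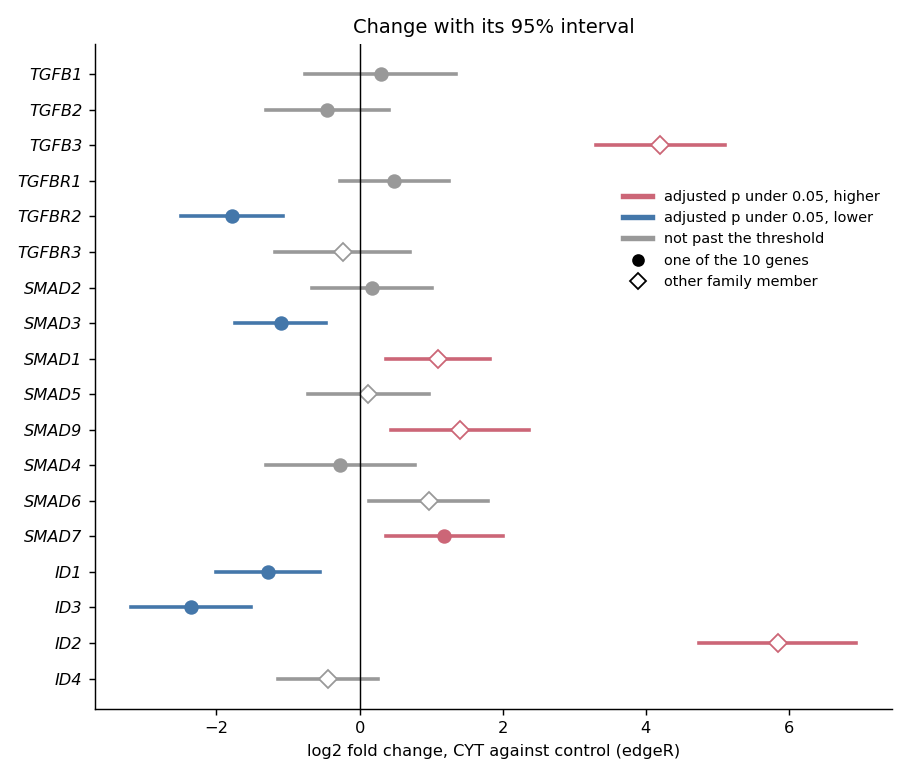
Log2 fold change of CYT against control (horizontal axis, edgeR) with its 95% interval for the 10 genes (filled circles) and 8 other members of their families (open diamonds). Intervals of TGFBR2, SMAD3, ID1 and ID3 lie below 0, and those of SMAD7, SMAD1, SMAD9, TGFB3 and ID2 lie above 0, all with an adjusted p under 0.05, while that of SMAD6 lies above 0 without passing the adjusted threshold.

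ID1 and ID3 are immediate targets of SMAD signalling from BMP and TGF-beta receptors. ID1 had 176, 195 and 178 CPM in control and 95.4, 47.6 and 82.7 CPM in CYT libraries, and CYT replicate 2 was the lowest. The mean fell from 183 ± 10.4 to 75.2 ± 24.7 CPM (SD, n = 3), a log2 fold change of -1.28 (SE 0.32, interval -2.01 to -0.55, edgeR adjusted p = 0.0167). It passed narrowly, and the edgeR adjusted p was 0.0502 without control replicate 2 (log2 fold change -1.19) and 0.0545 without control replicate 3 (-1.30). ID3 had 190.4, 164 and 167 CPM in control and 42.8, 18.2 and 40.9 CPM in CYT libraries, again lowest in CYT replicate 2. Its mean fell from 174 ± 14.5 to 34.0 ± 13.7 CPM (SD, n = 3), 5.11-fold lower and the largest change of the 10 genes (log2 fold change -2.35, SE 0.37, interval -3.19 to -1.52, edgeR adjusted p = 0.00228). Its call was kept without any 1 library, with log2 fold changes from -2.55 to -2.04. The log2 ratio of ID3 to ID1 in FPKM was -0.39 ± 0.18 in control and -1.49 ± 0.18 in CYT libraries (SD, n = 3), with no overlap (exact permutation p = 0.1, adjusted 0.125), so ID3 fell further than ID1 in each CYT library relative to all controls.

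ID2 went the other way. It had 37, 79 and 46 counts in control and 3428, 1371 and 2844 counts in CYT libraries, or 2.29, 4.21 and 3.31 CPM against 242, 97.6 and 226 CPM. The rise was 57.4-fold (log2 fold change 5.84, SE 0.49, interval 4.75 to 6.94, edgeR adjusted p = 0.000312), and it was kept without any 1 library, from 5.62 to 6.15. Even its lowest CYT library was many times its highest control library. ID4 had a log2 fold change of -0.44 (SE 0.31, edgeR adjusted p = 0.317), with overlap. In FPKM summed over the 4 ID genes, ID2 was 0.481% ± 0.138 in control and 44.2% ± 3.60 in CYT libraries (SD, n = 3). Over the same sum ID1 went from 53.5% ± 2.62 to 36.4% ± 2.44 and ID3 from 41.0% ± 3.16 to 12.9% ± 0.81 (SD, n = 3), both without overlap. The summed FPKM itself was 152 ± 11.9 in control and 93.6 ± 31.4 in CYT libraries (SD, n = 3), also without overlap. With counts divided instead by the longest annotated transcript, the share of ID2 was 0.541% and 48.8%.

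**Figure D3:**
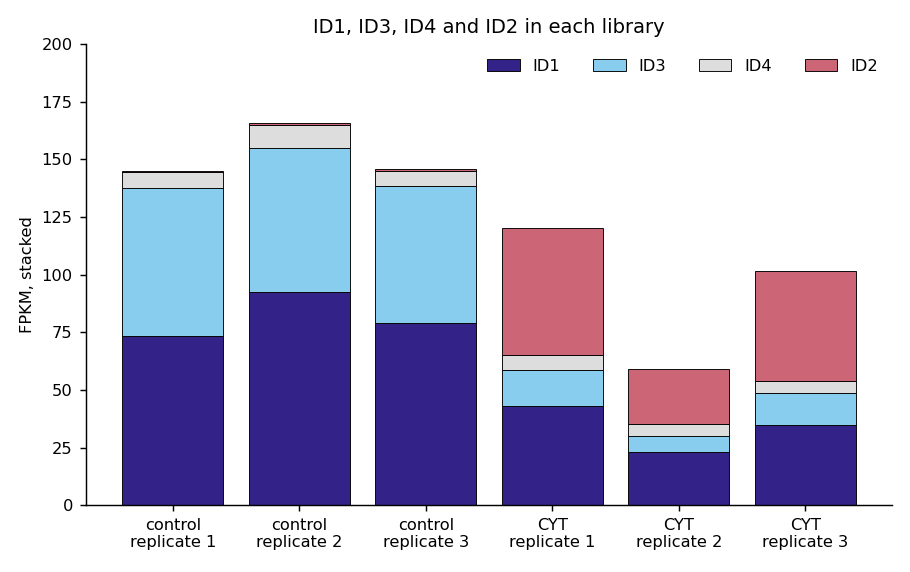
Deposited FPKM (vertical axis, stacked) of ID1, ID3, ID4 and ID2 in each of the 6 libraries. ID2 (red) is a thin line at the top of the control bars, at 0.331% to 0.604% of the sum, and the largest segment of each CYT bar, at 40.1% to 46.9%, while the segments of ID1 and ID3 are shorter in every CYT library.

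The 250 bases before the RefSeq start of these 3 genes are shown because the genes of 1 family moved in opposite directions. Whether these bases have a part in that was not tested. ID1 lies at chr20:31605283-31606515 on the plus strand, ID3 at chr1:23557918-23559794 on the minus strand and ID2 at chr2:8678845-8684453 on the plus strand of GRCh38. The windows are chr20:31605039-31605288 for ID1, chr1:23559502-23559751 for ID3 and chr2:8681806-8682055 for ID2 in the RefSeq annotation of GRCh38.p14, printed 5′ to 3′ on the strand of the gene. The ID3 and ID2 windows lie inside the loci given above, while the ID1 window lies almost wholly before its locus. Capitals mark matches on either strand to 3 short motifs. CAGAC holds the classic SMAD box, and SMAD proteins are also known to bind 2 sets of letters rich in G and C, which are GGCGC on the one hand and, as the other form, GGCCG here. No match overlaps another.
ID1: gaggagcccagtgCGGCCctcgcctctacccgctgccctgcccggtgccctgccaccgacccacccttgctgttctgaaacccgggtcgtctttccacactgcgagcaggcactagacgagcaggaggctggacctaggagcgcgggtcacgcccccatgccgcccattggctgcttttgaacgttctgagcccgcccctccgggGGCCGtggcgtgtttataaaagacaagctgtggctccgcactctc
ID3: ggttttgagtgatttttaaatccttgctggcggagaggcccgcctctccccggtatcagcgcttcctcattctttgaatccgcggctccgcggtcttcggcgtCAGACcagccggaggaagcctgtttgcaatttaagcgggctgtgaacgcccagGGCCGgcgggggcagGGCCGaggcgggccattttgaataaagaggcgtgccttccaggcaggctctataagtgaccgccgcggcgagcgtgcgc
ID2: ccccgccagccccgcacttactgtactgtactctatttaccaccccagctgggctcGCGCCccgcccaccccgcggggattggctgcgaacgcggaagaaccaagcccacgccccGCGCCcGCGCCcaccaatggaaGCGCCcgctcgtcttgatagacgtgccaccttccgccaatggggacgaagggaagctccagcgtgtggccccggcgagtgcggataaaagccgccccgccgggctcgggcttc

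The ID1 window held GGCCG 2 times, the ID3 window held GGCCG 2 times and CAGAC 1 time, and the ID2 window held GGCGC 4 times and neither of the others. Of 35116 promoter windows of this length, 38.0% held CAGAC. The share with GGCGC was 44.5% and the share with the other GC-rich motif was 44.7%. Any of the 3 was found in 74.1%, so at least 1 match is the usual case. A match gives letters only and no measurement of binding.

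Per length, the 10 genes fell into a high and a low set. In control libraries the mean FPKM was 81.5 for ID1, 62.1 for ID3, 47.6 for TGFB1, 25.3 for SMAD3 and 24.7 for TGFBR2, of which neighbours other than SMAD3 and TGFBR2 did not overlap. The low set was TGFB2 (2.47 FPKM), SMAD4 (0.992), TGFBR1 (0.933), SMAD2 (0.520) and SMAD7 (0.367), where the last 4 overlapped each with the next. In CYT libraries TGFB1 came first at 58.5 ± 31.9 FPKM (SD, n = 3), overlapping ID1 at 33.6 FPKM, and ID3 (12.2), SMAD3 (11.9) and TGFBR2 (7.33) followed, each overlapping its neighbour in that trio. The low set kept levels from 1.85 FPKM for TGFB2 to 0.600 FPKM for SMAD2, and all of its neighbours overlapped. The deposited FPKM divides SMAD2 by an implied 58135 bp, TGFBR1 by 18079 bp and SMAD4 by 25461 bp, where the exonic length in GENCODE 29 is 36366, 6844 and 13123 bp. Levels of these genes relative to others depend on that length, and their changes do not. With the longest GENCODE 29 transcript instead, the control order of the 10 genes was the same, but ID1 and ID3, TGFB1 and SMAD3, and TGFB2 and SMAD4 then overlapped, and in CYT libraries TGFB2 came after TGFBR1 and SMAD4.

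The rest of the pathway was read by role in lists of named genes. Of 77 other pathway genes tested, 28 passed (36.4%, beside 28.6% of all genes), with a median log2 fold change of 0.21. Of these 28 genes, 19 were higher and 9 lower, beside 15.7% higher and 12.9% lower of all genes. The higher genes include TGFB3, LRRC32, ITGB6, ACVR1C and PTHLH, which were tested only because their CYT libraries reached the count filter. The total, its split and the median are therefore a description. Among the 12 genes for further ligands and their activation, 3 rose and 1 fell (33.3% passed, beside 28.6% of all genes). The 3 that rose, TGFB3, LRRC32 and the integrin subunit ITGB6, were tested only because their CYT libraries reached the count filter, so for them this count is a description and supports nothing about the list. LRRC32, which anchors latent TGF-beta on the cell surface, had 0, 5 and 0 counts in control and 12, 21 and 45 counts in CYT libraries (edgeR adjusted p = 0.0135, and 0.0539 without CYT replicate 3). LTBP1, which binds latent TGF-beta in the matrix, fell from 82.3 ± 15.0 to 37.7 ± 3.52 CPM (SD, n = 3, log2 fold change -1.12, edgeR adjusted p = 0.0177). The LTBP1 call was lost without CYT replicate 1 or 3 or control replicate 1 or 2 (edgeR adjusted p from 0.0602 to 0.0681). Among the 11 further receptors, 2 rose and 1 fell, as given above (27.3% passed, beside 28.6% of all genes). One of the 2 that rose, ACVR1C, was tested only because its CYT libraries reached the count filter, so this count too is a description.

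Of 16 regulators of SMADs and receptors, 3 rose and 2 fell (31.2% passed, beside 28.6% of all genes), with a median log2 fold change of -0.27. BAMBI, a decoy receptor that dampens TGF-beta signalling, had 8.37, 9.64 and 9.92 CPM in control and 56.3, 34.4 and 42.2 CPM in CYT libraries. The groups were far apart, and BAMBI rose by a log2 fold change of 2.25 (SE 0.32, edgeR adjusted p = 0.00150), from 2.04 to 2.41 without any 1 library. The corepressors SKIL and TGIF1 rose by 1.63 (edgeR adjusted p = 0.0211) and 1.28 (edgeR adjusted p = 0.0451) on the log2 scale. SMURF2, a ubiquitin ligase that acts on receptors and SMADs, fell by 1.46 (edgeR adjusted p = 0.0224). These 3 calls depended on single libraries. SKIL lost its call without control replicate 1 (edgeR adjusted p = 0.0685) or 2 (0.0610), and SMURF2 lost it without CYT replicate 1 or 3 or control replicate 2 or 3 (edgeR adjusted p from 0.0608 to 0.0814). TGIF1 kept its call only without CYT replicate 1, and its log2 fold change was 0.71 without CYT replicate 2 (edgeR adjusted p = 0.0675), the library in which it was highest, and edgeR adjusted p otherwise ran from 0.0592 to 0.115.

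Of 20 genes commonly read as TGF-beta targets, 19 were tested, and 10 passed, 5 higher and 5 lower (52.6%, beside 28.6% of all genes, 15.7% higher and 12.9% lower), with a median log2 fold change of -0.25. PTHLH, among the higher genes, was tested only because its CYT libraries reached the count filter, so these counts and the median are a description. CCN2 (named CTGF in the table), a matricellular protein and a frequent readout of the pathway, fell from 884 ± 136 to 148 ± 25.3 CPM (SD, n = 3, log2 fold change -2.58, SE 0.29, edgeR adjusted p = 0.000639). BHLHE40, a transcriptional repressor, fell by 2.49 (edgeR adjusted p = 0.00111), and COL1A1, a chain of type I collagen, fell by 2.16 on the log2 scale (edgeR adjusted p = 0.00264). COL1A2, the partner chain of COL1A1 and a fibroblast marker, had 0 counts in every control library, and the fibroblast marker PDGFRB was lower in CYT libraries, with a part in this result that was not tested. SNAI1, which encodes Snail, a repressor of E-cadherin, rose instead, with 18.5, 8.63 and 13.9 CPM in control and 125, 40.1 and 123 CPM in CYT libraries. Its log2 fold change was 2.81 (SE 0.49, edgeR adjusted p = 0.00330). The calls of CCN2, BHLHE40, COL1A1 and SNAI1 were kept without any 1 library.

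Of 16 BMP and activin ligands and antagonists, 13 were tested and 3 passed, each of them higher (23.1%, beside 28.6% of all genes passed and 15.7% higher). NOG, the secreted BMP antagonist noggin, rose from 1.42 ± 0.37 to 12.5 ± 4.07 CPM (SD, n = 3, log2 fold change 3.13, SE 0.41, edgeR adjusted p = 0.00114). BMP4, a BMP ligand, went from 26.7 ± 12.1 to 64.0 ± 9.72 CPM (SD, n = 3, log2 fold change 1.26, edgeR adjusted p = 0.0331). INHBB, an activin subunit, rose by 1.08 on the log2 scale (edgeR adjusted p = 0.0228). NOG kept its call without any 1 library. BMP4 lost it without CYT replicate 1 or 3 or control replicate 2 or 3 (edgeR adjusted p from 0.0553 to 0.122), and INHBB without CYT replicate 3 or control replicate 1 or 3 (edgeR adjusted p from 0.0860 to 0.0890).

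**Figure D4:**
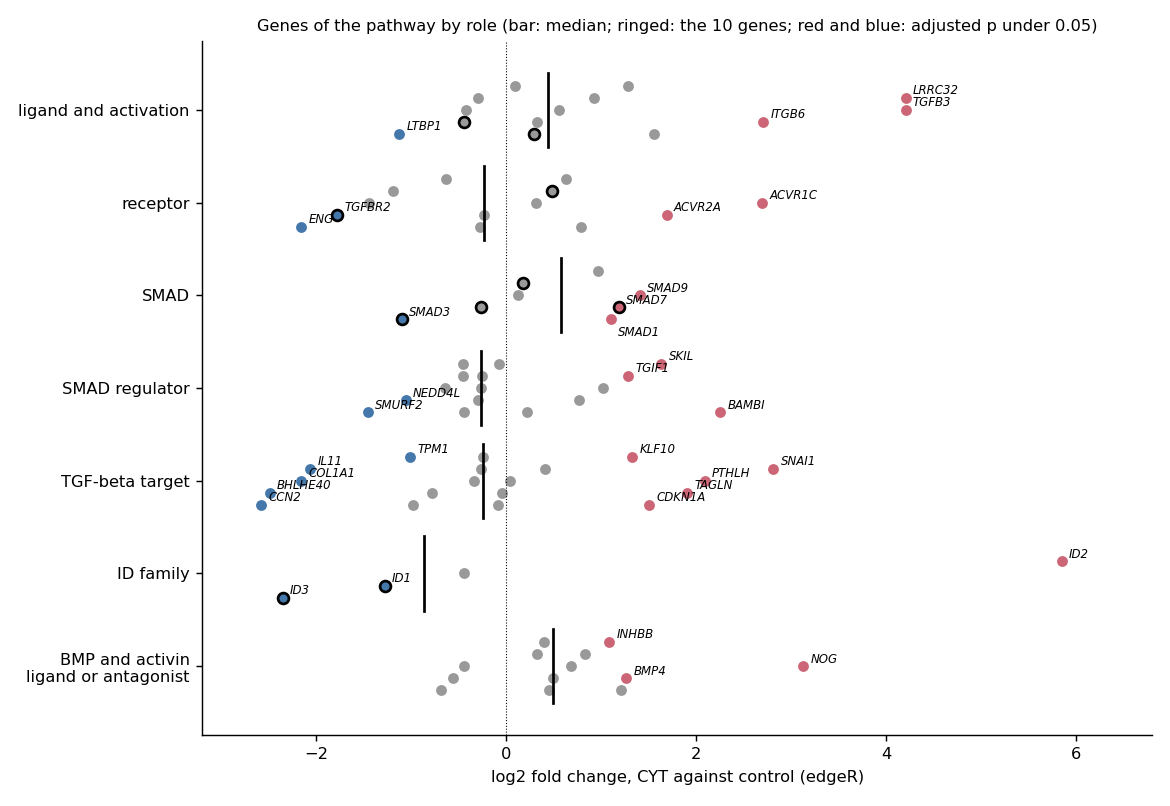
Log2 fold change of CYT against control (horizontal axis, edgeR) of every tested gene in the 7 role lists, with grey points for genes not past the threshold, red for higher and blue for lower at an adjusted p under 0.05, black rings for the 10 genes and vertical bars for list medians. Called genes stand on both sides of 0 in every list except that of BMP and activin ligands and antagonists, where 3 of 13 are higher.

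The plot of each gene under every fit shows which of the 10 results depended on a library or a tool. TGFBR2 and ID3 passed the threshold in all 15 alternatives. SMAD3 and ID1 passed in every alternative that used all 6 libraries, and SMAD7 passed in every such alternative except that without a filter on low counts (log2 fold change 1.11, edgeR adjusted p = 0.0828). With 1 library left out, between 2 and 5 of the 10 genes passed. The count was 2 without control replicate 3, when 17.5% of all genes passed, and 3 without control replicate 1, control replicate 2 or CYT replicate 3. The other 5 genes stayed outside the threshold in all alternatives, and the lowest edgeR adjusted p among them was 0.0712, for TGFB1 without CYT replicate 2.

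**Figure D5:**
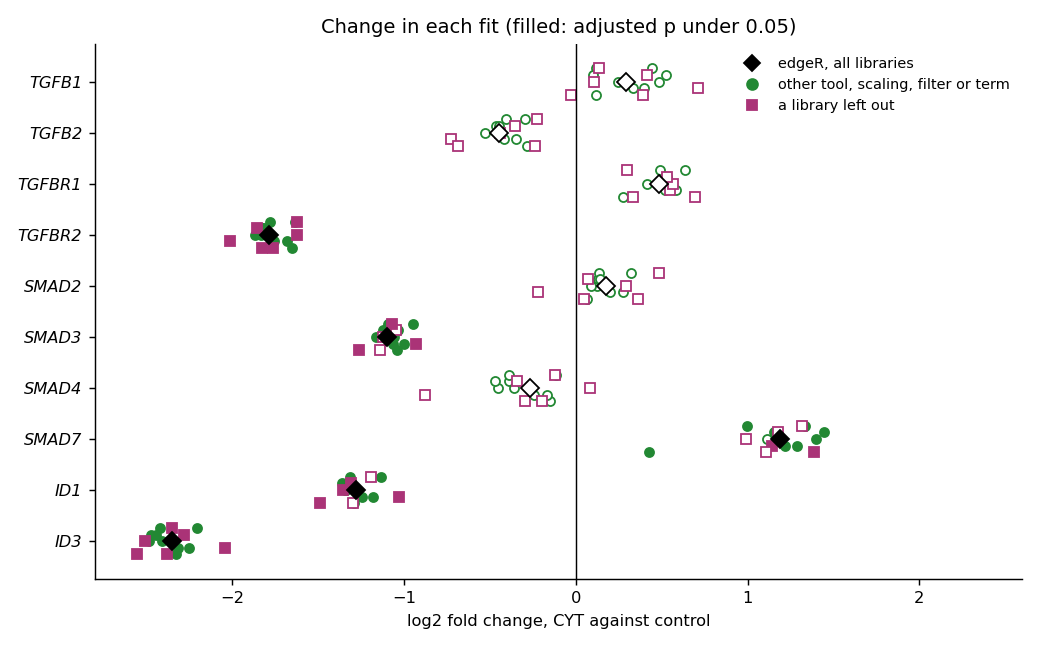
Log2 fold change of CYT against control (horizontal axis) of the 10 genes in each fit, with diamonds for edgeR on all libraries, green circles for other tools, scalings, filters or terms and purple squares for fits with 1 library left out; filled markers have an adjusted p under 0.05. TGFBR2 and ID3 are filled throughout, SMAD3, SMAD7 and ID1 are open in some fits, and the other 5 genes are open in every fit.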

How the data were processed

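RNA of 3 control and 3 CYT-treated MDA-MB-231-DR libraries was measured. Per the study's methods, the authors selected mRNA, sequenced it on an Illumina NovaSeq instrument, discarded reads of poor quality, of adapters or of ribosomal RNA, and aligned the rest with Hisat2. The submitters' processing notes name FastQC 0.12.1 and hg38. The authors deposited raw counts per gene and FPKM values (named to Stringtie), and FPKM was used for ratios and orders. The counting program, its annotation and its use of strand are not given in the sources used here. For 10160 genes that reached 50 counts in all libraries, count and FPKM imply 1 length per gene within 0.00209%, so FPKM is no separate measurement there.

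The counts were fitted with edgeR 4.0.16 (R 4.3.3, TMM, filterByExpr with minimum count 10, quasi-likelihood test, group as the only term), adjusted by the Benjamini-Hochberg method over all 15572 genes. CPM is TMM-normalized in gene values. The biological coefficient of variation was 37.5%. Within-library log2 ratios used FPKM + 0.1 and exact two-sided permutation tests. The genes and lists were chosen with earlier results of these data known. Named besides the 10 genes were 8 family members, and per list up to 4 called genes of largest change with a mean of at least 1 CPM, genes with an overlapping locus, and the 3 genes most like ID3. Alternatives were a replicate block, a fold threshold, leaving out each library, DESeq2 1.42.0, scaling by the upper quartile, a filter of 5 mean CPM, no filter, and limma 3.58.1 on log2(FPKM + 0.1) or on log2(FPKM + 1). A correction for GC content and length was added after the data were seen. On simulated counts for this comparison edgeR recovered 125 of 196 genes changed by a log2 fold of 2 among 15206 tested, with 3.85% of 130 calls false.

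Deviations of same-numbered libraries from their group means correlated at 0.188, 0.458 and 0.124, each over 0.1, which was taken as possible pairing. It rests on the label numbers and this check alone. Control replicate 1 with CYT replicate 3 correlated at 0.303, and control replicate 3 with CYT replicate 1 at 0.201. Both values exceed those of same-numbered replicates 1 and 3, so the check does not settle pairing. The main fit has no replicate term, and the replicate block is an alternative. Replicates differed by far more than sampling noise (chi-square per gene of 24.8 or more). Intervals and totals cover counting and library spread only.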

Additional observations from a re-analysis of the deposited data

How the results depend on the processing

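With other tools, scalings, filters or terms on all libraries, 4 to 5 of the 10 genes and 21 to 41 of the other pathway genes passed, and no direction of the 10 genes turned. The replicate block changed no call of the 10 genes, and 39 other pathway genes passed with it, against 28, while the share of all genes rose from 28.6% to 39.9%. With the GC correction 41 passed, beside 46.0% of all genes. SMAD7 was lost without a filter (log2 fold change 1.11), as were SMAD1, SMAD9 and INHBB (edgeR adjusted p = 0.0820, 0.0551 and 0.0570). Calls lost with limma on FPKM were SMAD9 and TGIF1 with either pseudocount (limma adjusted p from 0.0588 to 0.108), and ACVR1C and LRRC32 with pseudocount 1 (0.0552 and 0.0601). That scale, log2(FPKM + 1), understates low genes, and calls kept on it with a value over 1.5 times smaller were SMAD7 (0.43), TGFB3 (1.39), SMAD1 (0.46), ENG (-1.26), ACVR2A (0.53), SKIL (0.58) and COL1A1 (-0.75). With pseudocount 0.1 these were LRRC32 (1.21) and ACVR1C (1.43). Upper-quartile normalization moved the all-gene median to 0.16 on the log2 scale and the share of higher calls among all genes from 55.0% to 63.9%. No filter moved that median to 0.41, over 32060 genes. With 1 library left out, 2 to 5 of the 10 genes and 15 to 32 of the other pathway genes passed, while the share of all genes ran from 17.5% to 35.5%. The 10 genes then ranged from -0.03 to 0.71 (TGFB1), -0.73 to -0.23 (TGFB2), 0.30 to 0.69 (TGFBR1), -2.01 to -1.62 (TGFBR2), -0.22 to 0.48 (SMAD2), -0.88 to 0.08 (SMAD4), -1.26 to -0.93 (SMAD3), 0.99 to 1.38 (SMAD7), -1.49 to -1.03 (ID1) and -2.55 to -2.04 (ID3) in log2 fold change, and the TGFB2 to TGFB1 ratio from -1.39 to 0.06. Turned directions of fold changes and ratios were those of TGFB1 (-0.0255), SMAD2 (-0.22), SMAD4 (0.0847), that ratio (0.062), TGFBR3 (0.20, range -0.62 to 0.20) and SMAD5 (-0.19 and -0.06, range -0.19 to 0.52), none of them past the threshold in any fit. Among the ligand shares in FPKM, the difference of TGFB1 (-3.32 percentage points) turned as well, with a range of -5.88 to 1.54. So did that of TGFB2 (-0.81, range -3.39 to 0.68) and that of the summed ligand FPKM (12.1, range -0.0088 to 29.5). The cause of these shifts was not tested. SMAD9, LRRC32 and ACVR1C had a mean under 5 CPM and no value under that filter. Fits with 1 library left out have fewer samples. Depth limits SMAD7, LRRC32 and control TGFB3 and ID2, which rest on at most 124 counts per library.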

Other observations

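By root mean square difference of centred log2 CPM over the 6 libraries, the tested genes most like ID3 were BCAT2, a mitochondrial aminotransferase of branched-chain amino acids (0.104), PDE9A, a phosphodiesterase of cyclic GMP (0.118), and ADAP1 (0.119). BCAT2 went from a mean of 111 CPM in control to 20.5 CPM in CYT libraries, a log2 fold change of -2.43 (SE 0.39, edgeR adjusted p = 0.00224). The 6 libraries form 2 groups, so this measure takes in the group difference.

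Loci that share bases with the 10 genes had few counts other than those at TGFB1. AC091551.1, on the same strand as SMAD4, had 45 counts in CYT replicate 1 and at most 10 in any other library. The largest antisense partner of SMAD3, AC087482.1, had at most 41 counts, 1.30% or less of SMAD3 in the same library.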
